A study of Mus musculus with 15 samples.

Results

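The data described here are 9 genes of alternative (M2-type) macrophage activation, measured by RNA-seq in tumor-associated macrophages (TAMs) from mouse liver tumors: Chil3, Chil4, Retnla, Mrc1, Mgl2, Clec10a, Tgm2, Egr2 and Cdh1. They are 9 of the 55335 genes listed, and were found by their symbols. The members were chosen with earlier results of these samples in view, from their values in control TAMs against TAMs from the miRNA groups. Differences from control are therefore given as a description with no test, and the comparison between the miRNA groups was tested. In all, 8 of the 9 had a mean of at least 1 FPKM (fragments mapped to a gene, divided by its transcript length and by the mapped fragments of the sample), as had 11419 of all genes, and Cdh1 had not.

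The tumors were orthotopic hepatocellular carcinomas (HCC), grown from mouse hepatoma Hepa1-6 cells injected into the liver of C57BL/6 mice, and TAMs were sorted for RNA-seq. The 3 groups of 5 samples were control, miR-144 overexpression in HCC cells and miR-451a overexpression in HCC cells, so the miRNAs were overexpressed in the tumor cells and not in the sequenced macrophages. The tumor cells were a single line that carried firefly luciferase from a lentivirus, and the study describes a control or a miRNA lentivirus for these groups. The labels give no age and do not say that the samples of a group came from separate mice, and the study states a smaller n for its RNA-seq of TAMs than the number of samples labelled, so p-values measure only the spread between these samples, which may be technical.

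Alternative activation is the state that macrophages enter when IL-4 or IL-13 binds receptors that contain IL-4Rα and activates the transcription factor STAT6. Its effector genes encode secreted chitinase-like and resistin-like proteins, lectin receptors that take up glycoproteins, and a crosslinking enzyme. In tumors these genes are widely used as markers of M2-like TAMs, whereas M1-like macrophages carry genes of the response to IFN-γ and bacterial products.

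The sorted cells carried macrophage markers in all samples. Adgre1, which encodes the sorting antigen F4/80, was at 131 to 141 FPKM in control TAMs and at 334 to 394 FPKM in the 10 miRNA samples. Csf1r, the M-CSF receptor, was at 393 to 408 FPKM and at 650 to 727 FPKM. Cd68, a lysosomal membrane protein of macrophages, went the other way, at 1380 to 1500 FPKM in control TAMs and 835 to 976 FPKM in the miRNA samples. The hepatocyte genes Alb, Apoa1, Ttr, Serpina1a, Apoc3, Cps1 and Otc, and the epithelial genes Epcam, Krt8, Krt18 and Cldn4, were listed at 0 in all 15 samples, as was Clec4f, a defining gene of Kupffer cells. The depth implied by the smallest steps of the values was 15.5 to 30.3 M fragments per sample. The control TAMs stood apart from both miRNA groups across the whole table. Of 11419 genes tested with limma, 7668 (67.2%) passed an adjusted p of 0.05 between miR-144 and control TAMs and 7804 (68.3%) between miR-451a and control TAMs, whereas none (0%) passed between the miRNA groups, where 596 (5.22%) had an unadjusted p under 0.05. Of these calls 70.1% and 70.3% were higher than control, and 50% and 49.6% after each sample was centred on its median, since the median gene lay 0.13 and 0.14 above control on the log2(FPKM + 1) scale as deposited. Both comparisons with control share the same 5 control samples.

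All 8 members other than Clec10a were lower in every sample of both miRNA groups than in every control sample, and Clec10a was higher in every one. Among all genes tested, 16% lay wholly below control in the miR-144 group and 16.4% in the miR-451a group, and 37.9% and 38.8% lay wholly above it. Since the members were chosen from this contrast, nothing is read from their count. Of the ratios that could be formed on the FPKM scale, the largest was that of Chil3, at 13591 times lower in miR-144 TAMs, and the smallest that of Mrc1, at 1.59 times lower in miR-451a TAMs. In bulk samples, fewer cells that express a gene and less RNA per cell cannot be told apart.

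**Figure D1:**
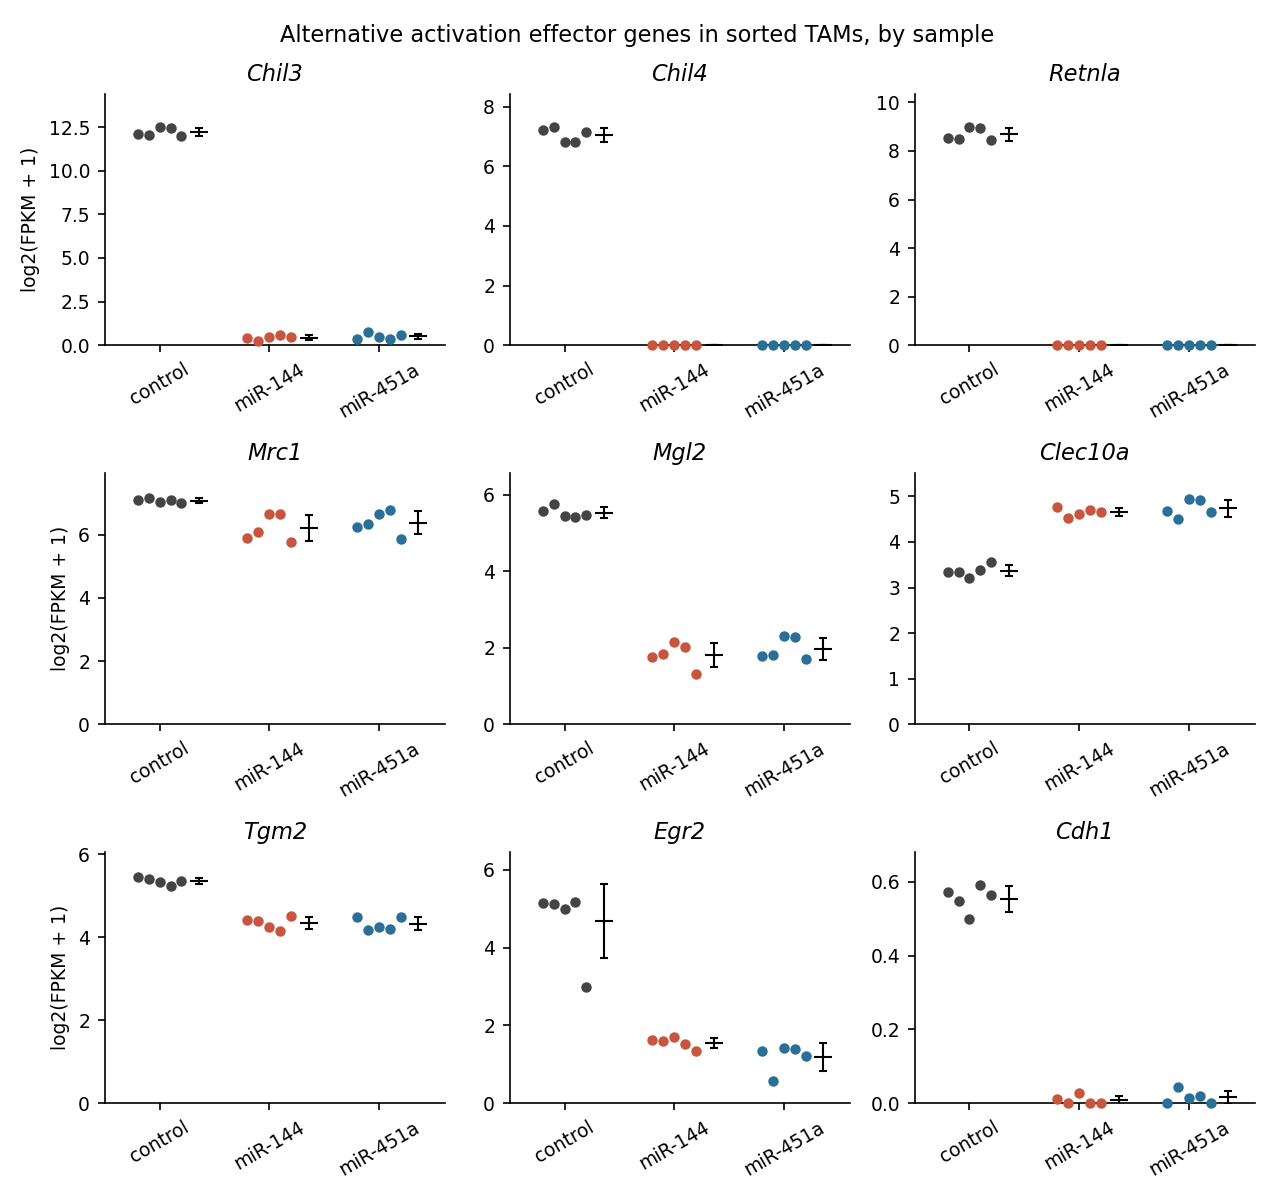
Levels of the 9 members in 15 samples of sorted TAMs, as log2(FPKM + 1) with a vertical axis of its own for each gene. Points are samples, and the bars beside them give the mean ± SD of the 5 samples of a group. The control points lie above all miRNA points in 8 panels and below them for Clec10a, and Egr2 has a control sample (replicate 5) far below the other 4.

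Chil3 encodes Ym1, a secreted chitinase-like protein that binds glycans without chitinase activity. In control TAMs Chil3 was at 4388, 4246, 5779, 5523 and 4011 FPKM in replicates 1 to 5 (mean 4789 ± 803, SD, n = 5), and held 1.32% to 1.92% of the summed FPKM of a sample, between the 5th and the 8th highest value of all genes. In miR-144 TAMs it was at 0.335, 0.169, 0.375, 0.488 and 0.396 FPKM (0.352 ± 0.117, n = 5). In miR-451a TAMs it was at 0.295, 0.690, 0.390, 0.299 and 0.481 FPKM (0.431 ± 0.164, n = 5). The gene thus went from among the most abundant transcripts to a trace, with no overlap between control and either miRNA group. The ratio of the means was 13591 against miR-144 and 11112 against miR-451a TAMs, and all 10 low values lay above 0.126 FPKM, the highest level that 3 fragments gave in a sample. That floor covers counting error only.

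Chil4 encodes Ym2, the closest relative of Ym1. Its FPKM was 148, 157, 111, 110 and 141 in the control replicates (134 ± 21.6, n = 5). In miR-144 TAMs it was listed at 0.00719, 0, 0, 0.0158 and 0 FPKM, and in miR-451a TAMs at 0 in all 5 samples. All 10 miRNA samples lay under the floor of 0.126 FPKM. The control mean was 1064 times that floor, which is a lower bound for its ratio to the miR-144 group, and no fold is given against a group listed at 0.

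Retnla encodes RELMα (FIZZ1), a secreted resistin-like protein of type 2 inflammation. It was at 369, 364, 502, 493 and 345 FPKM in control TAMs (415 ± 76.2, n = 5), which placed it 76th by group mean among all genes. It was listed at 0 in all 10 miRNA samples, where 3 fragments would have given at most 0.323 FPKM. None of the 12 housekeeping genes looked at, from Actb to Tbp, was at 0 in any sample.

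The start regions of these 3 genes are shown because the genes had the steepest differences and because Chil3 and Chil4 share their sequence there. They were read from RefSeq promoter windows of GRCm38.p6, which reach from 250 bases before a gene's start to 50 bases after it and were at hand for 6 of the 9 members (10 windows, several for Egr2). The capitals mark, in order, a TTC and GAA palindrome and the letters TATAAA, which began at -3 from the annotated start in Chil3, at -31 in Chil4 and at -30 in Retnla. The arms TTC and GAA with 3 or 4 bases between them are the general shape of a STAT site, and the form with 4 is the one that STAT6 prefers. Each sequence runs 5′ to 3′ on the strand of the gene.
Chil3, chr3:106167562-106167756, minus strand: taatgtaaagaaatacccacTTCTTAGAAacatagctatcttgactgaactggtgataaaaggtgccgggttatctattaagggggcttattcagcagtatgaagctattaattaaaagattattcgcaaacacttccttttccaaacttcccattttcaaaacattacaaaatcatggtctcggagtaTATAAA
Chil4, chr3:106219505-106219699, minus strand: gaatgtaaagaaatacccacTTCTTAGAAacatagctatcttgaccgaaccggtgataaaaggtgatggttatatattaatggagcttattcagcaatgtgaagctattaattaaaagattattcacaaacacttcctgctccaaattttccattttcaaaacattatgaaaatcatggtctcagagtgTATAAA
Retnla, chr16:48842444-48842584, plus strand: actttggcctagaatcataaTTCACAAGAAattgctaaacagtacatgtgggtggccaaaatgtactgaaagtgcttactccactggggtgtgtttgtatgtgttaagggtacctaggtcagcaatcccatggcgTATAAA

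The Chil3 and Chil4 stretches were identical at 90.7% of 194 aligned bases, and in both the palindrome TTCTTAGAA began 169 bases before the TATAAA. In Retnla the palindrome TTCACAAGAA began 115 bases before the TATAAA, and was followed by TTGCTAAA, a match to TTGCNNAA, a form of the C/EBP site. The Chil4 window held a match to TTGCNNAA on the opposite strand, which reads TTCAGCAA on the strand of the gene, and the Chil3 window held none. The palindrome with 3 bases between its arms was found on either strand in 8.3% of all 32851 windows, that with 4 bases in 6.95%, TTGCNNAA in 10.8%, and TATAAA on the strand of the gene in 8.32%. No palindrome of either form was found in the windows of Mrc1, Mgl2 and Egr2, which says only that these letters were not in those windows. A match is a description of sequence, and binding was not measured.

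Chil3 (chromosome 3, 106147554 to 106167564) and Chil4 (106201490 to 106219507) are 33925 bases apart in the GENCODE M21 annotation of GRCm38, both on the minus strand. Their longest transcripts were identical at 94.4% of 1538 aligned bases. Cut into overlapping stretches of 50 bases, 18.5% of the Chil3 transcript is found in Chil4 as well, so fragments could have been split between the genes and their single values are uncertain. Chil4 was at 3.38%, 3.7%, 1.92%, 2% and 3.53% of the FPKM of Chil3 in the control replicates, lower in replicates 3 and 4 than in the other 3. Retnla, with no 50-base stretch in common with another gene, moved within the control group as Chil3 did, with its highest values in replicates 3 and 4, whereas Chil4 had its lowest values there.

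Mrc1 (chromosome 2, 14229392 to 14332057) encodes the mannose receptor CD206, an endocytic receptor for mannosylated glycoproteins. Of the members, it kept the highest level in the miRNA groups. Control TAMs were at 136, 144.2, 132, 138 and 127 FPKM (135 ± 6.53, n = 5), miR-144 TAMs at 58.3, 67.5, 100.02, 99.6 and 53.9 FPKM (75.9 ± 22.4), and miR-451a TAMs at 75.8, 80.4, 101, 110 and 57.2 FPKM (85.03 ± 21.2). The groups did not overlap, but the gap was narrow, between 127 FPKM in the lowest control sample and 110 FPKM in the highest miRNA sample. The spread within the group was 4.83% of the mean in control TAMs, and 29.5% and 24.9% in miR-144 and miR-451a TAMs. The means were 1.78 and 1.59 times lower than in control TAMs.

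Mgl2 and Clec10a encode the paralogous galactose-type lectins MGL2 (CD301b) and MGL1 (CD301a), which bind terminal galactose and N-acetylgalactosamine, and they went in opposite directions. Mgl2 was at 46.8, 53.4, 42.8, 41.7 and 43.6 FPKM in control TAMs (45.7 ± 4.74, n = 5). It was at 2.36, 2.55, 3.4, 3.08 and 1.504 FPKM in miR-144 TAMs (2.58 ± 0.731) and at 2.47, 2.48, 3.92, 3.83 and 2.26 FPKM in miR-451a TAMs (2.99 ± 0.81), so its mean was 17.7 and 15.3 times lower. Clec10a was at 9.12, 9.18, 8.29, 9.41 and 10.8 FPKM in control TAMs (9.35 ± 0.906). It was at 26.3, 22.2, 23.5, 25.1 and 24.2 FPKM in miR-144 TAMs (24.3 ± 1.54) and at 24.6, 21.6, 29.6, 29.2 and 24.4 FPKM in miR-451a TAMs (25.9 ± 3.44), 2.59 and 2.77 times higher than in control TAMs. Neither gene overlapped between control and a miRNA group.

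Mgl2 made up 80.2% to 85.3% of the summed FPKM of the pair in control TAMs, 5.84% to 12.6% in miR-144 TAMs and 8.49% to 11.7% in miR-451a TAMs. The sum itself was 55 ± 4.73 FPKM in control TAMs, 26.8 ± 1.62 in miR-144 TAMs and 28.9 ± 4.19 in miR-451a TAMs (SD, n = 5 each). The genes lie 18646 bases apart on chromosome 11 (Mgl2 70130329 to 70137550 and Clec10a 70156197 to 70170834, both on the plus strand). Their transcripts were identical at 84.2% of 1090 aligned bases, and 15.3% of the 50-base stretches of Mgl2 also occur in Clec10a, so some fragments could have been split between them.

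**Figure D2:**
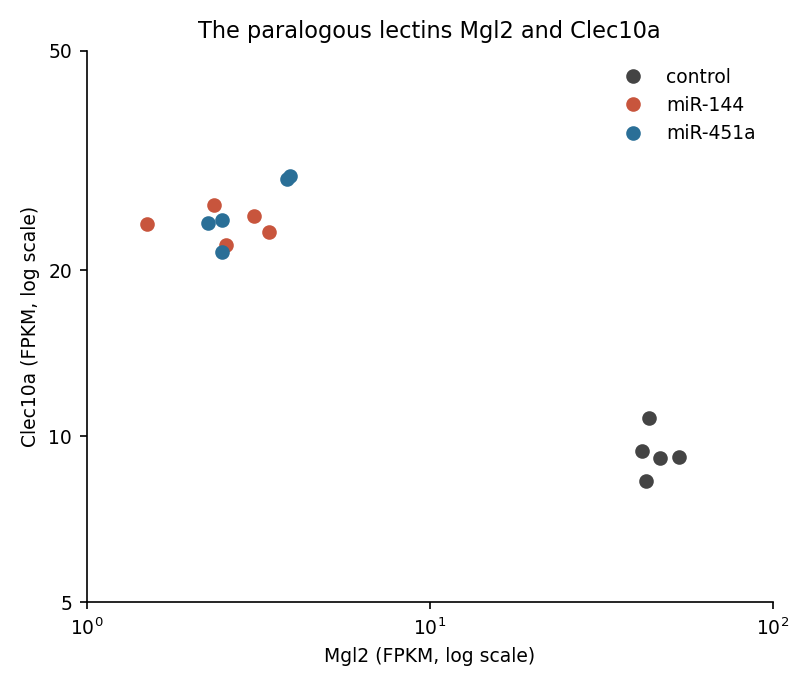
Clec10a against Mgl2, both in FPKM on log axes, with a point for each of the 15 samples. Control samples lie at 41.7 to 53.4 FPKM of Mgl2 and 8.29 to 10.8 FPKM of Clec10a, and the 10 miRNA samples lie at 1.504 to 3.92 FPKM of Mgl2 and 21.6 to 29.6 FPKM of Clec10a.

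Tgm2 (chromosome 2, 158116402 to 158146436) encodes transglutaminase 2, which crosslinks proteins and is a marker of alternative activation in mouse and human macrophages. It was at 42.7, 40.97, 39.3, 36.96 and 39.7 FPKM in control TAMs (39.9 ± 2.12, n = 5). It was at 20.5, 19.98, 17.9, 16.8 and 22.0 FPKM in miR-144 TAMs (19.4 ± 2.09) and at 21.3, 17.2, 18.1, 17.4 and 21.6 FPKM in miR-451a TAMs (19.1 ± 2.18). The values within each group were close, and the means were 2.06 and 2.09 times lower than in control TAMs.

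Egr2 (chromosome 10, 67535475 to 67542188) encodes a zinc finger transcription factor that is induced by IL-4 in macrophages. It was at 34.2, 33.6, 31.1 and 35.0 FPKM in control replicates 1 to 4 and at 6.93 FPKM in replicate 5. It was at 2.07, 2.004, 2.24, 1.85 and 1.55 FPKM in miR-144 TAMs (1.94 ± 0.26, n = 5) and at 1.56, 0.491, 1.68, 1.64 and 1.33 FPKM in miR-451a TAMs (1.34 ± 0.493, n = 5). Control replicate 5 lay far below the other controls but above all miRNA samples. The control mean was 28.2 ± 11.95 FPKM with that sample and 33.5 ± 1.68 FPKM (n = 4) without it, 14.5 and 17.2 times the miR-144 mean and 21 and 25 times the miR-451a mean. The same sample also had the lowest control values of Chil3, Retnla and Mrc1 and the highest of Clec10a.

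Cdh1 (chromosome 8, 106603351 to 106670246) encodes E-cadherin, which IL-4 induces in mouse macrophages and which joins epithelial cells in other tissues. It was the lowest of the members, at 0.486, 0.46, 0.413, 0.505 and 0.479 FPKM in control TAMs (0.469 ± 0.0352, n = 5). In the miRNA groups it was at 0 to 0.0307 FPKM, listed at 0 in 3 miR-144 and 2 miR-451a samples, and all 10 samples lay under the floor of 0.0437 FPKM. The control mean was 10.7 times that floor, which is a lower bound for its ratio to either miRNA group. The epithelial keratin genes Krt8 and Krt18 and Epcam were listed at 0 in all 15 samples, whereas Krt19 was at 0.354 to 0.651 FPKM in control TAMs and 0.636 to 1.58 in the miRNA samples, and Krt7 at 0.0735 to 0.151 and 0.0799 to 0.201 FPKM. The part of epithelial cells in the level of Cdh1 was not tested.

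The levels within a group could be ordered, since FPKM is per length. In control TAMs the order by mean was Chil3, Retnla, Mrc1, Chil4, Mgl2, Tgm2, Egr2, Clec10a and Cdh1. The ranges of Mrc1 (127 to 144.2 FPKM) and Chil4 (110 to 157 FPKM) overlapped, and their order varied between the control samples. Those of Mgl2 and Tgm2 overlapped too, but Mgl2 was the higher of them in every control sample. Egr2 overlapped with Clec10a only through replicate 5. In the miRNA groups the order was Mrc1, Clec10a, Tgm2, Mgl2, Egr2 and Chil3, followed by the 3 genes at or under their floors. There Clec10a and Tgm2 were close, at 22.2 and 22.0 FPKM at the facing ends of their ranges in miR-144 TAMs and 21.6 for both in miR-451a TAMs. Mgl2 and Egr2 overlapped in miR-144 TAMs, and did not overlap in miR-451a TAMs. Egr2 and Chil3 overlapped in miR-451a TAMs (0.491 to 1.68 and 0.295 to 0.69 FPKM), where replicate 2 held the lowest Egr2 and the highest Chil3. All 9 members together took 1.56% to 2.2% of the summed FPKM of a control sample and 0.0359% to 0.056% of that of a miRNA sample.

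Within groups, replicates 3 and 4 often stood together, although replicate numbers are names and the labels tie no samples across groups. In control TAMs they held the 2 highest values of Chil3 and Retnla and the 2 lowest of Chil4, Mgl2 and Tgm2. In both miRNA groups they held the 2 highest values of Mrc1 and Mgl2. Of the 21 member and group combinations above the floor, replicates 3 and 4 were the 2 highest in 8 and the 2 lowest in 4. Among all genes tested they were the 2 highest or the 2 lowest in 26.7% of genes in control, 31.7% in miR-144 and 32.1% in miR-451a TAMs. The part of preparation or sequencing in this was not tested, as the labels name no batch.

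**Figure D3:**
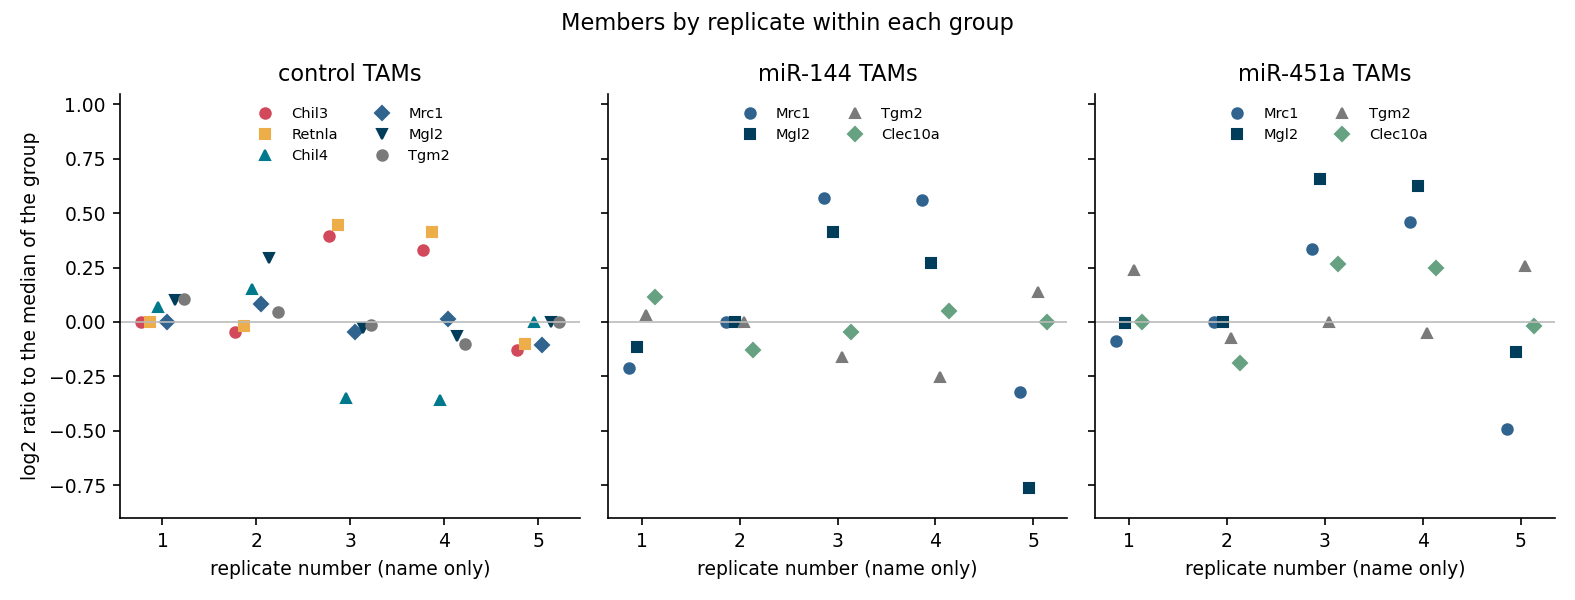
Selected members above the floor (6 in control TAMs, 4 in each miRNA group), as the log2 ratio of a sample's FPKM to the median of its 5 samples, against the replicate number, which is only a name. In control TAMs (left) replicates 3 and 4 lie high for Chil3 and Retnla and low for Chil4, and in miR-144 and miR-451a TAMs they lie high for Mrc1 and Mgl2.

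The comparison of miR-451a with miR-144 TAMs asked whether the members differed between the 2 overexpressed miRNAs, and was not used to choose them. It was made on log2(FPKM + 1) with limma, with p-values adjusted over all genes tested. Of the 5 members that averaged at least 1 FPKM in both of these groups, none passed an adjusted p of 0.05 (0% of all genes did) and none had an unadjusted p under 0.05. The lowest unadjusted p was 0.303, for Mgl2, whose difference, miR-451a minus miR-144, was 0.16 (SE 0.15, 95% interval -0.16 to 0.48, adjusted p = 1). The interval was -0.23 to 0.58 for Mrc1, -0.09 to 0.26 for Clec10a and -0.19 to 0.14 for Tgm2 on the same scale. It was widest for Egr2, at -1.09 to 0.37 (difference -0.36, unadjusted p = 0.31). The 3 groups share an estimate of the spread in this fit, and without control replicate 5, the low Egr2 sample, the interval was -0.65 to -0.07 (limma, unadjusted p = 0.0187, adjusted p = 0.96). These p-values do not show that the groups were alike, and the intervals are the sizes of difference that the spread leaves. Chil3 had passed the filter only through control TAMs. At means of 0.352 and 0.431 FPKM in the miRNA groups the added 1 compresses a difference, so nothing was read from its interval of -0.15 to 0.31. Chil4, Retnla and Cdh1 were at or under their floors in all 10 samples, so no difference was detectable at this depth.

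**Figure D4:**
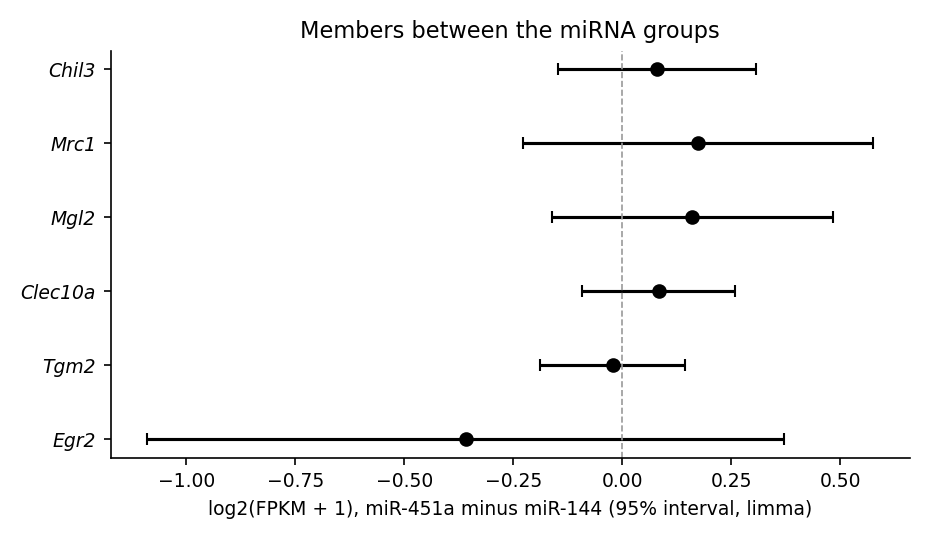
Difference of log2(FPKM + 1) between miR-451a and miR-144 TAMs for the 6 members above their floors, with the 95% interval from limma. All 6 intervals include 0, and that of Egr2, with control replicate 5 in the fit, is the widest.

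The related genes were then described from lists, which were drawn up with earlier results of these data known. Of 32 other genes of alternative activation, 22 had a mean of at least 1 FPKM. In miR-144 TAMs 13 of these 22 fell and 6 rose, and in miR-451a TAMs 13 fell and 7 rose (limma, adjusted p under 0.05 over all genes), where 20.1% and 20.3% of all genes fell and 47.1% and 48.1% rose. The median log2 fold change of the list was -0.94 and -0.81, against 0.13 and 0.14 over all genes. As log2(FPKM + 1), where the falls of low genes come out smaller than their ratios, the deepest falls were those of Ccl8, a chemokine, Slc7a2, which encodes an arginine transporter, and Ear2, an eosinophil-associated ribonuclease. Ccl8 went from 310 ± 21.1 FPKM in control TAMs to 3.26 ± 1.43 in miR-144 and 1.66 ± 0.553 in miR-451a TAMs. Slc7a2 went from 56.4 ± 24.0 to 0.768 ± 0.0634 and 0.744 ± 0.115 FPKM, and Ear2 from 35.6 ± 1.31 to 0.23 ± 0.103 and 0.339 ± 0.139 FPKM. The largest rises on that scale were in genes that are also used as M2 markers. Stab1, which encodes the scavenger receptor stabilin-1, rose from 34.6 ± 5.08 FPKM to 251 ± 21.2 and 276 ± 18.3, F13a1, the coagulation factor XIII A chain, from 0.325 ± 0.0247 to 5.95 ± 2.61 and 9.84 ± 4.58, and Cd163, the hemoglobin-haptoglobin receptor, from 0.958 ± 0.119 to 5.69 ± 1.02 and 6.1 ± 1.2. Slc7a2 and Ear2 passed the filter only through control TAMs, and F13a1 and Cd163 only through the miRNA groups, so no p-value is printed for them. For Ccl8 and Stab1 the highest adjusted p was 6.58e-13 (limma), for Stab1 in miR-144 TAMs.

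The list of IL-4 and IL-13 receptors, STAT6 and transcription factors of the pathway had 22 of 23 genes above the filter. In miR-144 TAMs 13 fell and 9 rose, and in miR-451a TAMs 12 fell and 8 rose, with medians of -0.49 and -0.39. Of all genes tested, 20.1% and 20.3% fell and 47.1% and 48.1% rose, with medians of 0.13 and 0.14. Il4ra, the IL-4 receptor α chain, rose from 11.9 ± 0.395 FPKM in control TAMs to 25.6 ± 3.09 in miR-144 and 26.1 ± 3.29 in miR-451a TAMs. Il13ra1, which pairs with it to bind IL-13, rose from 4.13 ± 0.191 to 10.3 ± 0.635 and 10.3 ± 0.798 FPKM, and Ptpn6, the phosphatase SHP-1, from 53.1 ± 2.61 to 124 ± 11.6 and 123 ± 8.71 FPKM. The cytokine-induced inhibitors Cish and Socs1 fell, Cish from 7.38 ± 0.905 FPKM to 0.12 ± 0.033 and 0.107 ± 0.0441, and Socs1 from 4.75 ± 0.421 to 0.243 ± 0.0733 and 0.267 ± 0.108. Bhlhe40, a basic helix-loop-helix repressor, fell from 62.5 ± 3.4 to 4.13 ± 0.288 and 3.94 ± 0.182 FPKM. Il13ra2, a receptor chain that binds IL-13 and is known as a decoy, was under the filter, at a mean of 1.75 FPKM in control TAMs, 0 in miR-144 and 0.00377 in miR-451a TAMs. Cish and Socs1 averaged under 1 FPKM in both miRNA groups and passed the filter only through control TAMs, so no p-value is printed for them. Among Il4ra, Il13ra1, Ptpn6 and Bhlhe40 the highest adjusted p was 2.86e-08 (limma), for Il4ra in miR-144 TAMs.

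Of 25 genes of arginine and polyamine metabolism, 22 were above the filter, of which 15 fell and 3 rose in miR-144 TAMs, and 16 fell and 3 rose in miR-451a TAMs, with medians of -0.30 and -0.33. The shares over all genes tested were 20.1% and 20.3% that fell and 47.1% and 48.1% that rose, with medians of 0.13 and 0.14. Slc7a2, given above, fell deepest on the log2(FPKM + 1) scale, followed by Gatm, which makes guanidinoacetate from arginine and fell from 38.4 ± 2.8 FPKM to 13 ± 1.89 and 13.3 ± 1.79. The rises were Smox and Paox, enzymes that oxidize spermine and acetylated polyamines, and Oaz2, an antizyme. Smox rose from 4.1 ± 0.348 FPKM to 9.55 ± 0.696 and 9.77 ± 0.6, Paox from 6.55 ± 0.545 to 11.2 ± 1.6 and 11.6 ± 1.22, and Oaz2 from 5.71 ± 0.356 to 7.63 ± 0.314 and 8.33 ± 0.401. Among Gatm, Smox, Paox and Oaz2 the highest adjusted p was 6.77e-06 (limma), for Paox in miR-144 TAMs. None is printed for Slc7a2, which passed the filter only through control TAMs.

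Of 34 relatives and partners of the members, 13 were above the filter and 6 were listed at 0 in all 15 samples, among them Chil1, Chil6, Retnlb and Retnlg. In miR-144 TAMs 5 fell and 6 rose, and in miR-451a TAMs 4 fell and 6 rose, with medians of 0.09 and 0.16, which became -0.05 and 0.02 after median centring. Among all genes tested 20.1% and 20.3% fell and 47.1% and 48.1% rose, with medians of 0.13 and 0.14. The rises and medians of the list were close to these, so nothing is read from its counts. Ly75 (DEC-205), a relative of the mannose receptor, fell from 6.49 ± 1.18 FPKM to 1.77 ± 0.154 and 1.72 ± 0.148. Ctnnb1 (β-catenin), the partner of E-cadherin, fell from 167 ± 18.0 to 72.2 ± 5.8 and 70.6 ± 6.99 FPKM, and Nab2, a corepressor of EGR proteins, from 22.3 ± 0.703 to 14.5 ± 1.3 and 13.8 ± 1.67 FPKM. Besides F13a1, a transglutaminase as is TGM2, the largest rises on the log2 scale were those of Cdh2 (N-cadherin), from 0.844 ± 0.142 to 2.34 ± 0.299 and 2.14 ± 0.288 FPKM, and Mrc2, another relative of the mannose receptor, from 2.49 ± 0.35 to 4.41 ± 0.498 and 5.07 ± 1.0 FPKM. Nab1, Ctnnd1 and Ctbs also rose, by less. Cdh2 and F13a1 averaged under 1 FPKM in control TAMs and passed the filter only through the miRNA groups, so no p-value is printed for them. Among the other called genes named here the highest adjusted p was 8.35e-05 (limma), for Mrc2 in miR-144 TAMs.

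Of 28 genes of classical (M1-type) activation, 15 were above the filter. In miR-144 TAMs 10 rose, 1 fell and 4 did not pass, and in miR-451a TAMs 11 rose, 1 fell and 3 did not pass, with medians of 0.79 and 0.81, where 47.1% and 48.1% of all genes rose. Without a filter on low values 15 rose and 5 fell in miR-144 TAMs and 13 rose and 4 fell in miR-451a TAMs, with medians of 0.25 and 0.25. Cxcl10, an IFN-induced chemokine, rose from 0.371 ± 0.0905 FPKM to 7.74 ± 0.82 in miR-144 and 7.39 ± 1.29 in miR-451a TAMs. Tnf rose from 1.62 ± 0.397 to 7.39 ± 1.2 and 6.41 ± 1.09 FPKM, and Fpr2, a formyl peptide receptor, from 0.0111 ± 0.0155 to 2.1 ± 0.57 and 1.64 ± 0.489 FPKM. The gene that fell was Acod1, the itaconate-producing enzyme, from 13.7 ± 1.38 to 2.87 ± 0.654 and 2.5 ± 0.877 FPKM. Nos2, the inducible nitric oxide synthase, was under the filter, at a mean of 0.252 FPKM in control, 0.019 in miR-144 and 0.0118 in miR-451a TAMs. Cxcl10 and Fpr2 averaged under 1 FPKM in control TAMs and passed the filter only through the miRNA groups, so no p-value is printed for them. For Tnf and Acod1 the highest adjusted p was 4.64e-08 (limma), for Tnf in miR-451a TAMs.

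**Figure D5:**
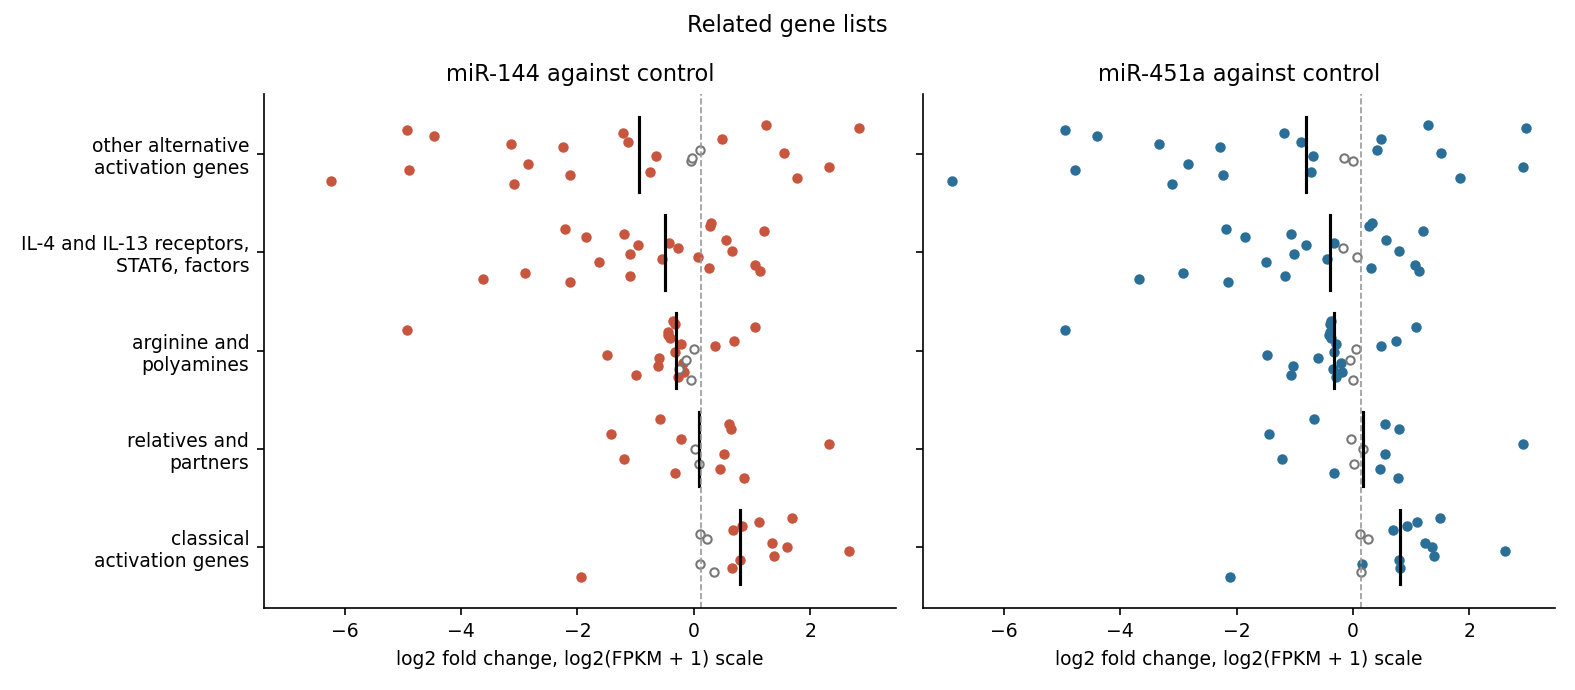
Log2 fold changes, on the log2(FPKM + 1) scale, of the genes of 5 related lists in miR-144 (left) and miR-451a (right) TAMs against control. Filled points passed an adjusted p of 0.05 in limma and open points did not, thick lines are list medians, and the dashed line is the median of all 11419 genes (0.13 and 0.14). The first 4 lists hold genes on both sides of 0, and in the classical activation list 1 gene lies on the left.

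Genes whose difference from control was most like that of the members were ranked by the smaller of the 2 falls on the log2(FPKM + 1) scale, as a description. Among 11419 genes Chil3 stood 1st, Retnla 2nd, Chil4 5th, Mgl2 27th and Egr2 37th, whereas Tgm2 was 347th and Mrc1 572nd. The falls of Retnla and Chil4, and so their places, depend on the pseudocount, since both were at or under their floors in the miRNA samples. The 10 other genes with the largest falls were Rnase2a, Ccl8, Tmem26, Bex1, F10, Lipn, Slc7a2, Gm8221, Ear2 and Cldn11, at -8.32 to -4.74. Rnase2a, which encodes a secreted ribonuclease, stood between Retnla and Chil4, at 333 ± 31.3 FPKM in control TAMs, 0.00947 ± 0.0212 in miR-144 TAMs and 0.0392 ± 0.0358 in miR-451a TAMs (SD, n = 5 each).

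Marker lists of other cell types also differed between control and miRNA samples. The summed level of 7 alveolar macrophage markers was 149 to 172 FPKM in control TAMs, 30.2 to 34.0 in miR-144 and 29.4 to 31.0 in miR-451a TAMs, mostly from Fabp4 (111 to 130 FPKM in control TAMs) and Pparg, while Krt79 and Ear1 were listed at 0 in all samples. Marco, on the same list, went the other way, at 0 to 0.0321 FPKM in control TAMs and 0.103 to 0.433 in the miRNA samples. The sum of 6 monocyte markers was 119 to 158 FPKM in control TAMs and 11.3 to 17.2 in the miRNA samples, which came from F10 (114 to 154 against 1.49 to 2.7 FPKM), whereas Ly6c2, the defining gene, stayed at or under 0.403 FPKM. Other monocyte markers were higher in the miRNA samples: Ccr2 was at 0.116 to 0.259 FPKM in control TAMs and 0.939 to 1.5 in the miRNA samples, Plac8 at 2.24 to 3.61 and 5.11 to 10.8, and Vcan at 1.17 to 1.58 and 2.49 to 3.59. The sum of 9 Kupffer cell markers was 43.4 to 53.7 FPKM in control TAMs and 54.2 to 83.8 in the miRNA samples. Within it Cd5l was higher in the miRNA samples (15.3 to 48.9 against 3.21 to 3.65 FPKM), Nr1h3 lower (6.73 to 9.05 against 15.8 to 21.4 FPKM), and Folr2 overlapped. The sum of 6 fibroblast and stellate cell markers was 106 to 131 FPKM in control TAMs and 141 to 231 in the miRNA samples, mostly from Col1a1 and Col1a2. The sum of 6 eosinophil markers was 2.59 to 3.01 FPKM in control TAMs and 0.615 to 1.08 in the miRNA samples, which came from Siglecf (1.94 to 2.56 against 0.159 to 0.504 FPKM), a gene that is also on the alveolar list. Ccr3 overlapped between control and the miRNA samples, and Prg2 was listed at 0 in all 15 samples. Of 11 neutrophil markers 10 stayed under 1 FPKM, and Csf3r was at 64.4 to 78.5 FPKM in control TAMs and 43.9 to 52.5 in the miRNA samples. The sum of 7 T cell markers was 1.25 to 1.63 and 5.32 to 9.51 FPKM, mostly from Cd4, with Cd3e and Cd3g listed at 0. Among B cell markers, Cd79b was at 0.0878 to 0.328 and 1 to 1.62 FPKM, and Ms4a1 at or under 0.0142 FPKM. Of the markers used for microglia, Gpr34 was at 0.0889 to 0.235 FPKM in control TAMs and 3.71 to 14.1 in the miRNA samples, P2ry12 at 0.552 to 0.763 and 1.85 to 4.36, and Sall1 was listed at 0 in all samples. The sums of the peritoneal macrophage, endothelial, and mast cell and basophil lists were higher in every miRNA sample than in every control sample and that of the NK cell list was lower, none of them above 5.94 FPKM. The endothelial sum came mostly from Kdr (2.5 to 3.09 FPKM in control TAMs and 3.16 to 5.12 in the miRNA samples), while Pecam1, Cdh5 and Stab2 overlapped, and the mast cell and basophil sum mostly from Mcpt8. Gata6, the defining gene of peritoneal macrophages, was at 0.0257 to 0.0732 FPKM in control TAMs and 0 to 0.0272 in the miRNA samples. The part of other cell types in the members' differences was not tested.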

How the data were processed

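TAMs were analysed in 15 RNA-seq samples, 5 in each of 3 groups taken from the sample labels. The authors deposited FPKM per gene and sample, divided by transcript length and mapped fragments. FastQC 0.11.2, STAR and StringTie are named in the submitters' processing notes, and the genome build and annotation are not given in the sources used here. Of the gene identifiers, 55154 (99.67%) matched GENCODE M21 (GRCm38), whose coordinates are printed and may differ from those of the build that the authors used. The members and lists were chosen with earlier results of these data known.

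Depth was read from the smallest steps in the values of genes with a single transcript. Between 36.1% and 49.5% of low values lay within 0.05 of a multiple of the step (10% by chance), too few to recover counts for a count test. Each gene's floor was what 3 fragments gave in the sample where that was highest. Replicates were compared for copies on the approximate counts that this depth implies. The closest pair differed by a mean chi-square of 3.13 per gene, which is a description and no test.

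limma 3.58.1 (R 4.3.3) was fitted to log2(FPKM + 1) with the 3 group means and a mean-variance trend, over the 11419 genes that averaged 1 FPKM or more, at a Benjamini-Hochberg adjusted p of 0.05. Fold changes on this scale understate those of low genes. Fits were tested on simulated data. Text and plots used Python 3.11.15, numpy 2.4.6, pandas 2.3.3, matplotlib 3.10.9 and Biopython 1.88. 1 further member and some other listed genes are not reported here. Named were the 9 other members, from each list the 3 largest falls and rises called in both comparisons with control, and the 10 other genes with the largest falls. Nos2, Il13ra2, Nab1, Ctnnd1, Ctbs, Chil1, Chil6, Retnlb and Retnlg were named after their values were seen. The alternatives changed the pseudocount (0.1), the filter (none, or 5 FPKM), the scaling (median centring, quantiles or TPM) or the fit (a replicate block, no trend, only the 2 groups compared, or a sample left out). RefSeq promoter windows (GRCm38.p6) gave the sequences.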

Additional observations from a re-analysis of the deposited data

Results flagged for a closer look

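Egr2 in control replicate 5 was at 6.93 FPKM, where the next control sample was at 31.1 FPKM and the highest at 35.0 FPKM, so the gap to its neighbour took up 0.861 of the range of the group. Such a gap was looked for in the 21 member and group combinations above the floor, and this was the only one found. Chance flags about 1 in 20 groups.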

How the results depend on the processing

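Of 266 recomputed counts 253 stayed within 1.5 times the reported count. With a mean of at least 5 FPKM, fewer genes were tested, and 4776 genes were called between miR-144 and control and 4821 between miR-451a and control. With that filter the calls were 14 and 12 among the receptors, STAT6 and transcription factors, 5 and 5 among relatives and partners, and 6 and 6 among classical activation genes. Fewer genes of each of these lists averaged at least 5 FPKM, so a lower count is not read as calls lost. Without a filter, 20 of 27 classical activation genes tested were called between miR-144 and control. Leaving out each sample in turn gave 7385 to 7497 and 7538 to 7697 genes called against control. Between the miRNA groups it gave 0 to 2 genes, with 2 without miR-144 replicate 4, miR-144 replicate 5 or miR-451a replicate 3 and 1 without miR-451a replicate 5. No member was among the calls between the miRNA groups in any alternative, also with each control sample left out. The genes named by rule from the lists kept direction and call under the 3 other scalings (median centring, quantiles and TPM), the pseudocount of 0.1 and the block.

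Of 224 recomputed log2 differences of members from control none changed sign, and 20 moved by more than the SD between replicates, all under another pseudocount or scaling. Chil3 ranged from -13.4 to -11.5, Retnla from -12 to -8.61 and Chil4 from -10.3 to -6.96 in miR-144 TAMs, and Mrc1 from -0.84 to -0.57 in miR-451a TAMs. Cdh1 was under the filter in these fits.

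The replicate block called 7711 and 7859 genes against control and 0 between the miRNA groups, and changed no count by over 1.5 times. The numbers were to be taken as pairs if every same-numbered pair correlated above 0.1, which 8 of 15 pairs did, so they were not. The mean r of same-numbered samples was 0.14 between control and miR-451a, 0.101 between the miRNA groups and -0.0122 between control and miR-144. For other numbers it was -0.0347, -0.0252 and 0.00312 in the same order. Same-numbered pairs of control and miR-451a were all above 0, at 0.0658 to 0.264. Of 30 best matches in another group, each picked among 5 samples, 12 had the same number. Depth limits what can be said of values under the floors.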
